A study of Mus musculus with 2 samples.

Results

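The genes described here are 29 mouse genes of cholesterol synthesis and sterol regulation, taken from the 43346 genes of the deposited tables by matching the gene identifiers, without their version, to GENCODE symbols. All 29 were found. They were measured by total RNA-seq in whole kidney of B6NCrl mouse embryos at 14.5 days, with 2 libraries labelled as biological replicates 1 and 2 of a single condition. Each library came from both kidneys of 1 pup, although the labels also call each sample a pool of males and females, and the collection days differed. A 10 ng input of RNA longer than 200 nt was used per library, with spike-in RNAs added, and the linked protocol is a Smart-seq method. No genotype or treatment was compared, so no test between groups was possible, and every difference below is one between the 2 replicates or between genes of 1 library.

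Cells build cholesterol from acetyl-CoA through mevalonate, the isoprenoid diphosphates, squalene and a series of sterol intermediates. Its supply is controlled by the SREBP transcription factors, which are held in the endoplasmic reticulum by a complex of SCAP and an INSIG protein while sterols are plentiful, and which are escorted by SCAP to the Golgi and cut free when sterols run low. Released SREBPs bind sterol regulatory elements, often beside NF-Y and Sp1 boxes, in promoters of the synthesis genes. In a developing organ the pathway also feeds the isoprenoid anchors of small GTPases and the sterol that is attached to Hedgehog ligands.

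The promoter stretches in which these elements were looked for are shown first, so that the letters searched can be seen in place. They come from RefSeq on GRCm38.p6, and capitals mark the 8 letters CACNCCAC, the core of a sterol element, or the letters CCAAT of the NF-Y box, in either orientation. The Hmgcs1 stretch (100 bases, beginning 200 bases before the start site, chr13:119690151-119690250, plus strand) holds both. The Insig1 and Acat2 stretches, each 100 bases ending at the start site (chr5:28071312-28071411, plus strand, and chr17:12960726-12960825, minus strand), hold the core in reverse orientation. The stretches before the 1a-type and 1c-type start sites of Srebf1 (chr11:60220628-60220727, minus strand, and chr11:60210472-60210571, minus strand) are set beside each other because their transcripts are compared below, and only the 1c-type stretch holds a marked box.
Hmgcs1: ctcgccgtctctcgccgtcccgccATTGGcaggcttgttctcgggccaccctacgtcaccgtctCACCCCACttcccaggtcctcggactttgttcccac
Insig1: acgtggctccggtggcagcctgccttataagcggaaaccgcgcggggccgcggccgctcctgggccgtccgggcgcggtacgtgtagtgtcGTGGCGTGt
Acat2: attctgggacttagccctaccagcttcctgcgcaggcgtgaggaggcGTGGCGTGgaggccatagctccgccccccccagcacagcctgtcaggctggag
Srebf1, 1a-type: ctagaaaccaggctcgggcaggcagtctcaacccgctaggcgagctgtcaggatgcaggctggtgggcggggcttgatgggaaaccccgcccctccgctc
Srebf1, 1c-type: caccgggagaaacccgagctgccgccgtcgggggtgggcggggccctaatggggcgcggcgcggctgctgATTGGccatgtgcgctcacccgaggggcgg

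A microRNA and its letters in a member of the list complete the set. The hairpin of Mir33 (chr15:82198122-82198190, plus strand, GRCm38) lies in intron 16 of the 18 introns of Srebf2-201, and its mature product miR-33 is known to repress Abca1. The mature sequence, from RefSeq (chr15:82198127-82198147, plus strand), is shown with its seed, bases 2 to 8, in capitals. Below it stand 30 bases of the Abca1 3′ UTR from the GENCODE transcript Abca1-201 (chr4:53033783-53033812, minus strand), where capitals mark the letters CAATGCA that pair with that seed.
mmu-miR-33-5p: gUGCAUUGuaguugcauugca
Abca1 3′ UTR: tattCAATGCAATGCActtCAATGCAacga

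The libraries held 29718428 expected counts (replicate 1) and 29204212 (replicate 2), of which 28429080 and 27758872 fell on genes. The tissue label was matched by the kidney markers: 6 of 6 were detected, with Cited1 and Wt1 highest (Cited1 131 and 141 TPM, Wt1 129 and 81.5 TPM in replicates 1 and 2) and Ret lowest (11.1 and 5.07 TPM). Of 8 adrenal cortex markers, 2 were detected, Akr1b7 (26.6 and 24.0 TPM) and Mc2r (3.01 and 3.19 TPM). The adrenal list summed to 31.4 and 28.6 TPM, while Cyp21a1 and Hsd3b1 were at 0 counts in each library (for Cyp21a1, a level of up to 0.157 and 0.136 TPM is allowed by 3 counts). Of 6 liver markers, 4 were detected, led by Afp (22.0 and 13.0 TPM) and Serpina1a (5.87 and 3.45 TPM), with Ttr lowest (0.73 and 0.16 TPM) and the list at 32.9 and 20.8 TPM in sum. The kidney list summed to 347 and 294 TPM, and its members did not move alike between libraries: Ret and Wt1 were higher in replicate 1 (log2 ratios of 0.99 and 0.65), while Foxd1, named after its values were seen, was higher in replicate 2 (12.4 and 18.3 TPM, -0.53). By TPM, 4 of 6 kidney and 5 of 6 liver markers were higher in replicate 1, as were 73.0% of the 15075 genes with a mean of at least 1 TPM. By the rule of size given below, 0 of 6 kidney markers were apart between libraries, and 0 of the 2 liver markers that could be judged. Of 11480 genes, 5.56% were, so these counts tell little. The part of cell composition in the members' differences was not tested.

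All 29 genes were detected, meaning at least 1 TPM (a level per transcript length, scaled to a fixed sum in each library) in both libraries, where 33.1% of all 43346 genes and 59.0% of 21474 protein-coding genes were. They held 59718 expected counts in replicate 1, which is 0.210% of the counts on genes (95% Clopper-Pearson interval 0.208 to 0.212), and 50225 in replicate 2, which is 0.181% (0.179 to 0.183). These intervals cover counting error only. Their median level was 33.0 TPM (37.5 in replicate 1 and 25.5 in replicate 2), against 18.3 TPM (20.9 and 15.6 TPM) over the 12669 detected protein-coding genes. Of the 29, 22 had a mean above that median, and 21 were above it in both libraries. Fdps stood highest, at the 92.3 percentile of detected protein-coding genes, and Abca1 lowest, at the 12.6 percentile. In bulk tissue, a low level from fewer cells of a type and one from less RNA per cell cannot be told apart.

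**Figure D1:**
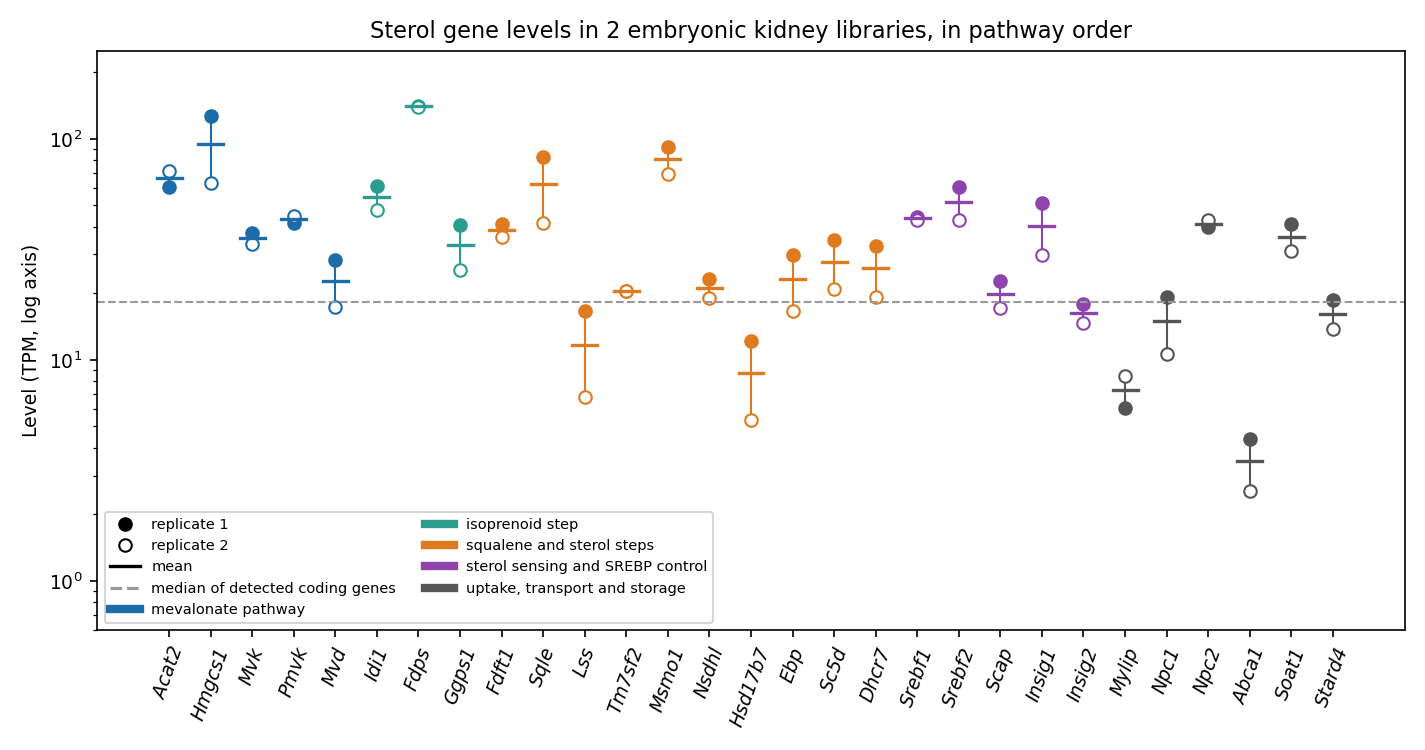
Level of each gene in TPM on a log axis, in pathway order, with filled circles for replicate 1, open circles for replicate 2, a bar at their mean and colours for the role of the gene; the dashed line is the median of detected protein-coding genes. Fdps lies at the top at 140.7 and 139.6 TPM, Abca1 at the bottom at 4.41 and 2.56 TPM, and Lss, Hsd17b7, Hmgcs1 and Sqle show the widest gaps between libraries on the log scale.

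The mevalonate steps had a median of 43.2 TPM over 5 genes. Hmgcs1, the cytosolic synthase that makes HMG-CoA, was at 126 TPM in replicate 1 and 63.3 TPM in replicate 2 (94.9 ± 44.7, SD, n = 2). Acat2, the thiolase that joins acetyl-CoA units before it, was at 60.8 and 71.6 TPM (66.2 ± 7.69). Hmgcs1 was thus higher in replicate 1 and Acat2 higher in replicate 2. The kinases after HMG-CoA reduction differed little between libraries: Mvk, mevalonate kinase, had 37.5 and 33.6 TPM, and Pmvk, which adds the next phosphate, had 41.6 and 44.8 TPM. Mvd, the decarboxylase that releases isopentenyl diphosphate, was lowest of the 5, at 28.3 TPM in replicate 1 and 17.3 TPM in replicate 2.

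The isoprenoid step included the highest gene of the list. Fdps, farnesyl diphosphate synthase, had 140.7 TPM in replicate 1 and 139.6 TPM in replicate 2 (140.2 ± 0.785), the level from 3136 and 3590 expected counts. It was the only gene at the top of the order whose libraries did not overlap with those of the next, Hmgcs1. Idi1, the isomerase that supplies the allylic unit, had 61.2 and 47.4 TPM (54.3 ± 9.71). Ggps1, which extends farnesyl to geranylgeranyl diphosphate for protein prenylation, had 40.6 TPM in replicate 1 and 25.5 TPM in replicate 2 (33.0 ± 10.6), so Fdps stood 3.47 and 5.47 times above it.

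The squalene and sterol steps, 10 genes, spanned the widest range in fold among the synthesis enzymes, with a median of 24.6 TPM. Fdft1, squalene synthase, which commits farnesyl diphosphate to sterols, had 41.2 and 36.0 TPM (38.6 ± 3.71), below Fdps by a ratio of 3.41 and 3.88. Sqle, squalene epoxidase, a rate-limiting step of the sterol branch, had 83.1 TPM in replicate 1 and 41.6 TPM in replicate 2 (62.3 ± 29.3). Lss, which closes the ring to lanosterol, had 16.6 and 6.83 TPM (11.7 ± 6.93), and the ratio of Sqle over Lss was 5.00 in replicate 1 and 6.09 in replicate 2 over all transcripts, and 8.98 and 10.3 over protein-coding ones. All 10 genes of this role were higher in replicate 1 on the TPM scale, as were 73.0% of the 15075 genes with a mean of at least 1 TPM. With TMM or DESeq2 library scaling, Fdft1, Nsdhl and Tm7sf2 were not, which left 7. The share of all genes was not computed with those scalings.

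After lanosterol, Msmo1, the oxidase that starts removal of the paired methyl groups, was the highest, at 92.0 and 69.6 TPM (80.8 ± 15.9). Its partners in that removal were lower: Nsdhl, the dehydrogenase, had 23.2 and 19.1 TPM (21.1 ± 2.92), and Hsd17b7, the keto reductase, had 12.2 and 5.36 TPM (8.76 ± 4.81), the lowest of the synthesis enzymes. The same demethylation thus rested on genes whose means ranged from 8.76 to 80.8 TPM. Tm7sf2, a sterol reductase shared in function with the lamin B receptor, had 20.5 TPM in both libraries. Ebp, the sterol isomerase, had 29.9 and 16.6 TPM (23.3 ± 9.40). Sc5d, the desaturase that acts on lathosterol, had 34.7 and 21.0 TPM (27.8 ± 9.67), and Dhcr7, the reductase that is mutated in the human Smith-Lemli-Opitz syndrome, had 32.8 and 19.2 TPM (26.0 ± 9.65). Ebp, Sc5d and Dhcr7 were close in level within each library.

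Among the regulators, the median was 40.4 TPM over 5 genes. Srebf2, which encodes the SREBP that chiefly drives cholesterol genes, had 60.5 TPM in replicate 1 and 43.1 TPM in replicate 2 (51.8 ± 12.3). Srebf1, whose products also drive fatty acid genes, had 44.4 and 42.9 TPM (43.6 ± 1.10). Their ratio, Srebf2 over Srebf1, was 1.36 and 1.01 (1.18 ± 0.251) over all transcripts, but 2.34 and 2.07 (2.21 ± 0.188) over protein-coding transcripts. Scap, the escort, was at 22.6 and 17.1 TPM (19.9 ± 3.89). Insig1, the retention protein that is itself an SREBP target, had 51.0 and 29.9 TPM (40.4 ± 14.9), and Insig2, its paralog, 17.9 and 14.6 TPM (16.3 ± 2.33). Insig1 exceeded Insig2 by 2.85 times in replicate 1 and 2.04 times in replicate 2, with no overlap of their levels.

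Uptake, transport and storage genes were the lowest role, with a median of 15.6 TPM over 6 genes. Soat1, which esterifies cholesterol for storage, had 41.0 and 31.1 TPM (36.1 ± 6.94). Npc2, the lysosomal protein that hands cholesterol to the membrane protein Npc1, had 39.7 and 43.1 TPM (41.4 ± 2.38), and Npc1 had 19.3 and 10.7 TPM (15.0 ± 6.11). Npc2 exceeded Npc1 in both libraries, by 2.06 and 4.04 times over all transcripts, and by 3.17 and 5.44 times over protein-coding ones. Stard4, a soluble sterol carrier, had 18.7 and 13.7 TPM (16.2 ± 3.48). Mylip, the ubiquitin ligase that marks lipoprotein receptors for degradation, had 6.09 and 8.47 TPM (7.28 ± 1.68), and Abca1, the exporter that loads cholesterol onto lipoproteins, had 4.41 and 2.56 TPM (3.49 ± 1.31). Mylip and Abca1, both targets of the oxysterol receptors (LXR), were the lowest of the 29 by mean, and their levels did not overlap each other.

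The order of the genes was much alike in both libraries. Of the 10 highest genes of replicate 1, 9 were among the 10 highest of replicate 2, and 4 genes differed by 5 or more places: Sqle (place 4 and place 10), Insig1 (8 and 14), Npc2 (14 and 8) and Tm7sf2 (22 and 17). Between neighbours in the order by mean, 26 of 28 pairs overlapped in their library values, the exceptions being Fdps above Hmgcs1 and Mylip above Abca1. Most single places in that order are therefore not set apart by the spread between replicates.

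Levels were higher in replicate 1 for 25 of the 29 genes, where 73.0% of the 15075 genes with a mean of at least 1 TPM were. The median log2((TPM + 1) ratio), replicate 1 over replicate 2, was 0.40 over the 29 genes and 0.26 over all of those genes, so the difference from the whole table was 0.14. With library scaling by TMM, 18 of 29 were higher in replicate 1, with a median of 0.10, and with DESeq2 size factors also 18, with a median of 0.13, where the medians of all genes were 0.0029 and 0.03. The share of all genes higher in replicate 1 was not computed with these scalings. The 4 genes on the other side on the TPM scale were Mylip (-0.42), Acat2 (-0.23), Npc2 (-0.11) and Pmvk (-0.10). A gene was called apart when this ratio passed 1 in either direction with at least 5 TPM in the higher library, and Abca1 could not be judged because it stayed under 5 TPM. Of the 28 that could, Lss (1.17) and Hsd17b7 (1.05) were apart, both higher in replicate 1, against 5.56% of 11480 genes, of which 4.56% were higher in replicate 1. A count of 2 of 28 is close to that background, and no gene of the list was apart with TMM or DESeq2 scaling, where 2.09% and 2.21% of all genes were. Hmgcs1 (0.99) and Sqle (0.98) lay just inside the limit. At 1.5-fold, 11 of 28 were apart, where 27.1% of all genes were. Over protein-coding transcripts alone, at the first limit, 2 of 28 were again apart, but not the same genes. Hsd17b7 (8.14 and 4.58 TPM in replicates 1 and 2) was then inside the limit, and Ebp (23.0 and 10.5 TPM) was past it. The share over all genes was not computed for that setting.

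The intervals of TPM deposited with each library, which cover the uncertainty of the estimate and not the spread between animals, failed to overlap between replicates for 23 of 29 genes. They also failed to overlap for 64.7% of the 11480 genes with at least 5 TPM in the higher library. Abca1, which is under that floor, is among the 23. In Hmgcs1 they ran from 120.1 to 126 TPM in replicate 1 and from 60.0 to 63.6 TPM in replicate 2. They belong to the posterior mean and need not hold the TPM itself, as in Insig2, where the interval of replicate 1 ran from 18.6 to 26.6 TPM beside a TPM of 17.9. In Srebf1 they overlapped, at 40.1 to 52.4 TPM and 38.6 to 49.6 TPM. The spread between the 2 libraries was thus wider than the estimation error of either for most of the list, as it was for most of those 11480 genes.

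Transcript length here is that of a gene's transcripts weighted by their abundance in replicate 1, so it depends on the transcript estimates of that library. For Ebp it was 1069 nt in replicate 1 and 1337 nt in replicate 2. The difference between libraries moved with this length over the whole tables. Its median was -0.14 for genes under 1000 nt, 0.10 from there to 2000 nt, 0.34 to 3000 nt, 0.50 to 4000 nt, 0.56 to 6000 nt and 0.48 beyond. Spearman's rho between length and the ratio was 0.52 over 15075 genes and 0.31 over the 29, given as a description, since all points share the same 2 libraries. Set against the median of its own length class, the list had a median difference of 0.02, with 15 of 29 genes above. By role, 7 of the 10 squalene and sterol genes were above their class, with a median difference of 0.38, led by Ebp (0.71), Lss (0.67), Sqle (0.64) and Hsd17b7 (0.55). Only 1 of the 5 regulators was above, Insig1 (0.41), with a role median of -0.08, and 2 of the 6 transport and storage genes were, Npc1 (0.30) and Abca1 (0.12), with a role median of -0.10. The part of length in the single differences was not tested.

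**Figure D2:**
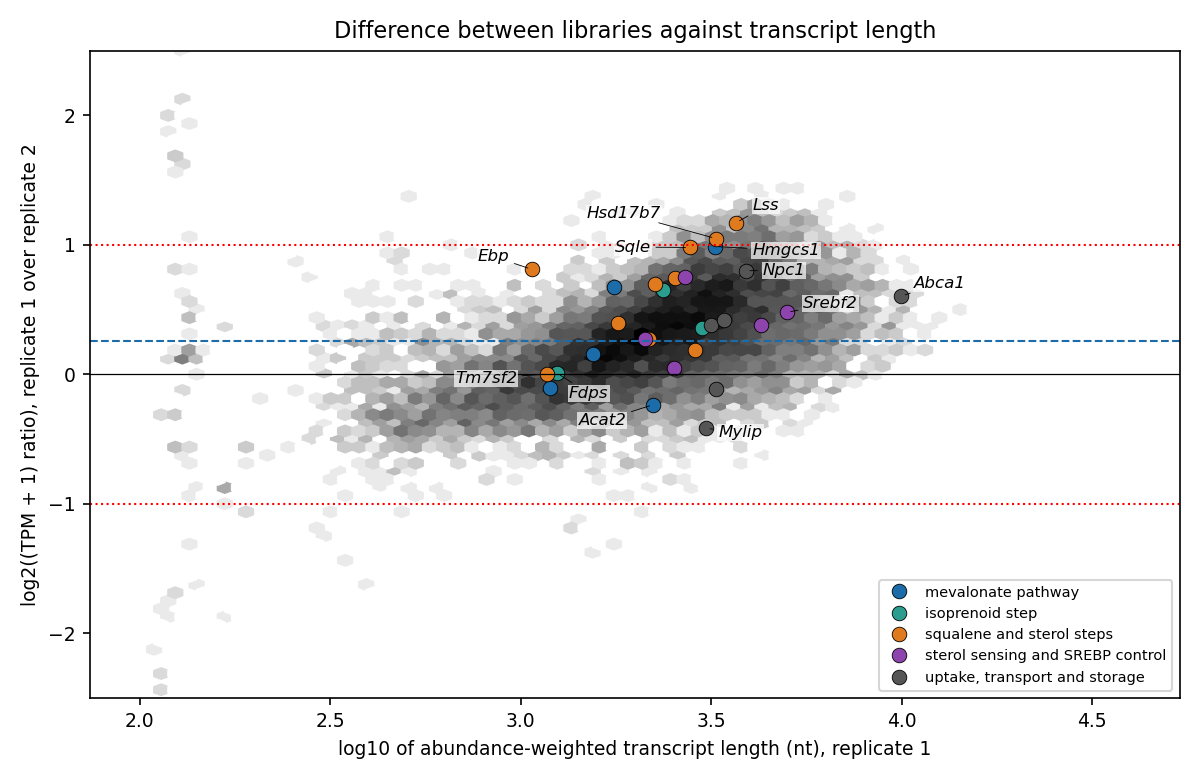
Ratio between libraries, log2((TPM + 1) of replicate 1 over replicate 2), against the log10 of abundance-weighted transcript length in nt in replicate 1, with the sterol genes coloured by role over all genes at a mean of 1 TPM or more (grey, darker where more genes lie; a few genes beyond the vertical range are not drawn). The dashed line is the median of all genes at 0.26 and the dotted lines the limits at 1 and -1; Lss and Hsd17b7 lie above the upper limit, and the grey cloud climbs with length.

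At the transcript level, 27 of the 29 genes were led by the same transcript in both libraries, and 28 were led by a protein-coding transcript in both. In 18 genes the leading transcript held at least 90% of the level in both libraries, and in 12 it held all of it; 10 genes have only 1 transcript in the tables, so that for them the share is fixed by the annotation. In 8 genes, at least 10% of the level lay on average in transcripts annotated as non-coding (retained intron or processed). These were Srebf1 (46.6%), Lss (43.6%), Msmo1 (36.8%), Npc1 (30.4%), Ebp (30.0%), Hsd17b7 (23.8%), Tm7sf2 (17.0%) and Soat1 (12.1%). The share was smaller when taken over counts, since short transcripts weigh more per count in TPM: for Srebf1 it was 5.47% and 7.77% of counts, and for Hsd17b7 7.07% and 2.70%.

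Over protein-coding transcripts alone, Lss had 9.12 TPM in replicate 1 and 3.95 TPM in replicate 2, and Msmo1 had 56.1 and 45.4 TPM. In Lss the retained-intron transcript of 425 nt, Lss-205, took 3.61 and 1.09 TPM from 22.96 and 8.02 expected counts. Another retained-intron transcript, Lss-204 (6992 nt), took less TPM, 1.61 and 0.94, from more counts, 217 and 146. Over counts, the non-coding share was 29.9% and 32.8% in Lss and 31.6% and 28.1% in Msmo1. In Msmo1 a processed transcript of 1329 nt, Msmo1-206, took 32.5 and 21.5 TPM from 780 and 595 expected counts, so it rested on far more reads than Lss-205. Ebp changed its leading transcript between libraries: the coding transcript of 526 nt, Ebp-203, had 12.5 TPM in replicate 1 and 1.48 TPM in replicate 2, while the full-length Ebp-201 had 10.5 and 9.02 TPM. The difference of Ebp between libraries on the gene level lay mostly in that short transcript.

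**Figure D3:**
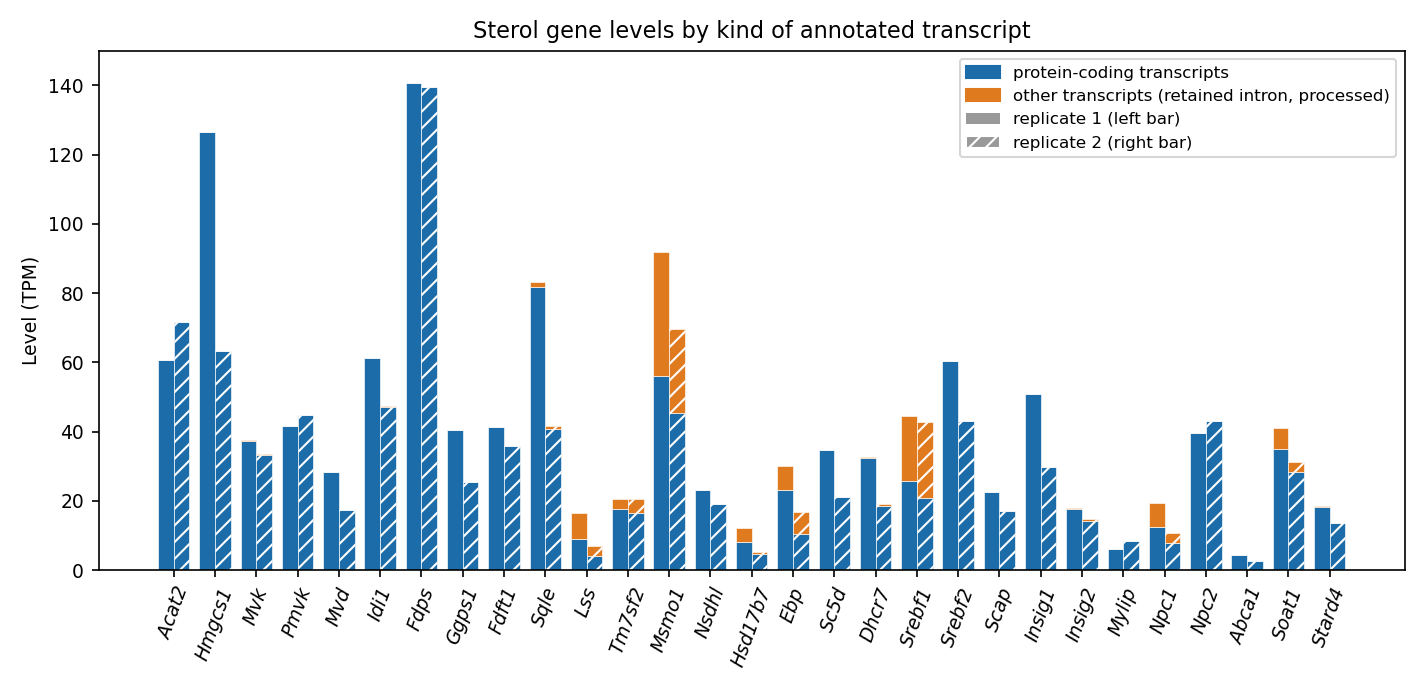
Level of each gene in TPM, with the left bar for replicate 1 and the hatched right bar for replicate 2, divided into protein-coding transcripts (blue) and other annotated transcripts (orange). Orange parts are largest in Msmo1 and Srebf1, and 12 genes have all their level in a single transcript, 10 of them because the tables hold only 1 for the gene.

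Srebf1 (chr11:60199089-60222581, minus strand, GRCm38) makes messages from alternative first exons, which give SREBP-1a, with the longer activation domain, or SREBP-1c, the form best known from adult liver. The 1a-type transcript Srebf1-201 (first exon chr11:60220453-60220604, with 91 coding nt) had 19.5 TPM in replicate 1 and 16.3 TPM in replicate 2, from 1598 and 1541 expected counts. The 1c-type transcript Srebf1-207 (first exon chr11:60210336-60210465, with 19 coding nt) had 5.73 and 3.22 TPM, from 344 and 224 expected counts. The 1a type thus made up 77.3% and 83.5% of the sum of both (80.4% ± 4.39, SD, n = 2) and exceeded the 1c type by 3.40 and 5.06 times. Both types share their next 5 coding exons, so the division between them rests on reads that reach the first exons or other parts in which the transcripts differ. One such part is the 3′ end: Srebf1-207 (3177 nt) stops at chr11:60200463, while Srebf1-201 (4299 nt) reaches chr11:60199089. Reads beyond the end of Srebf1-207 cannot be given to it, whatever first exon their message had. The 1a-type share is therefore one between these annotated transcripts, not of first exons alone.

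The processed transcript Srebf1-204 begins farthest upstream, is 367 nt long and had 15.7 TPM in replicate 1 and 18.6 TPM in replicate 2, although only 82.2 and 112 expected counts lay on it. In replicate 2 it was the leading transcript of the gene. Without the non-coding transcripts, Srebf1 stood at 25.9 and 20.8 TPM (23.3 ± 3.57), which is what raises the ratio of Srebf2 over Srebf1 given above. Srebf1 also shares 109 exonic nt with Rai1 on the opposite strand, and the sources used here do not say whether strand was used in counting.

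**Figure D4:**
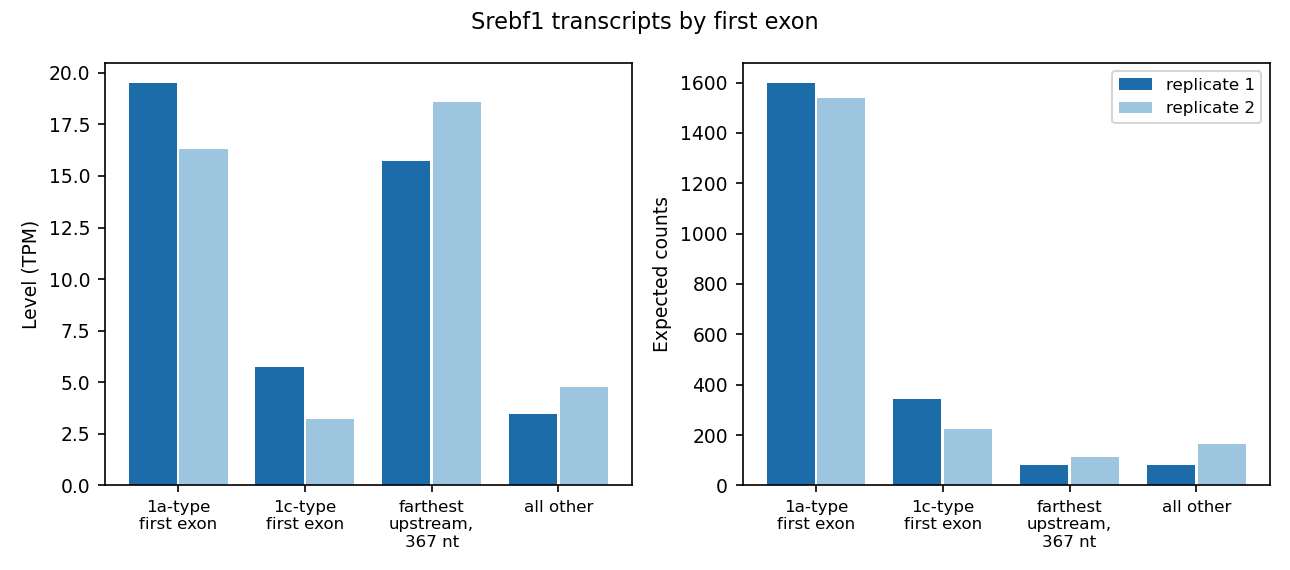
Srebf1 transcripts grouped by first exon, in TPM (left) and in expected counts (right), with replicate 1 in dark and replicate 2 in light blue. The 367 nt transcript that begins farthest upstream is near the 1a type in TPM but far below it in counts, and the 1a type exceeds the 1c type on both scales in both libraries.

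Some other members also share sequence with another gene. An exonic overlap with another annotated gene was found for 10 of the 29, and 10 had a count that was not whole (beyond 0.005) in a library, as happens when a read is shared out over several features. The largest overlaps with a counted protein-coding gene were those of Fdft1 with Ctsb (774 nt, opposite strand), Tm7sf2 with Vps51 (532 nt, same strand), Npc1 with Rmc1 (511 nt, opposite strand) and Ggps1 with Arid4b (257 nt, opposite strand). The levels of these genes are uncertain to that extent. Acat2 has a near copy, Acat3, which had 20.0 and 20.6 expected counts (0.80 and 0.45 TPM) against 2526 and 3436 for Acat2. The transcripts used for Sc5d and Ggps1 were shorter (2249 and 2367 nt) than in the later annotation (4787 and 4244 nt), which bears on their levels per length.

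Paralogs outside the list were measured beside the members. Soat1 was at 41.0 and 31.1 TPM where Soat2, the form of intestine and liver, had 9 and 4 expected counts. Acat2 was slightly below Acat1, the mitochondrial thiolase (78.9 and 76.3 TPM), at a ratio of 0.770 and 0.939. Idi2 had 0 counts in replicate 1, which allows up to 0.0714 TPM, and 1 count in replicate 2.

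Other genes of the pathway were taken as lists, with 39 of their 44 genes detected and a median level of 16.7 TPM. Of 6 genes for SREBP cleavage and for sterol-linked ubiquitin ligases, all were detected: Mbtps1, the protease that makes the first cut in SREBPs, had 85.7 and 43.0 TPM, and Syvn1, a ubiquitin ligase, had 25.2 and 17.5 TPM. None of the 6 was apart between libraries, against 5.56% of 11480 genes, so this count tells little. Mbtps1 (0.98) lay just inside the limit. All 6 were higher in replicate 1 on the TPM scale, as were 73.0% of the 15075 genes with a mean of at least 1 TPM. In the LXR list, 4 of 5 were detected. Nr1h2, the widespread LXR, had 55.4 and 51.0 TPM and exceeded Nr1h3, the LXR of liver and macrophages (1.30 and 0.93 TPM), by 42.6 and 54.8 times. Rxrb, a partner receptor, had 21.3 and 16.0 TPM. Abcg1, an exporter like Abca1, had 6.44 and 4.65 TPM, or 1.46 and 1.82 times the level of Abca1.

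Fatty acid synthesis genes, which SREBPs also drive, were all 7 detected. Scd2, a desaturase, had 161 TPM in replicate 1 and 77.4 TPM in replicate 2, Acly, which makes cytosolic acetyl-CoA, 124 and 52.7 TPM, Fasn, the fatty acid synthase, 58.8 and 39.0 TPM, and Scd1, the desaturase paralog of adult liver, 4.12 and 2.01 TPM. Of the 6 that could be judged, Scd2 (1.05) and Acly (1.22) were apart by the log2 ratio, both higher in replicate 1, against 5.56% of all genes. No gene of the list was apart with TMM or DESeq2 scaling, where 2.09% and 2.21% of all genes were. All 7 were higher in replicate 1 on the TPM scale, as were 73.0% of the 15075 genes with a mean of at least 1 TPM. They were also higher with both scalings, for which the share of all genes was not computed. Their median log2 ratio was 0.77 in TPM, 0.65 with TMM and 0.68 with DESeq2 scaling, where the medians of all genes were 0.26, 0.0029 and 0.03. Their median length was 5453 nt, in the class from 4000 to 6000 nt, whose median ratio in TPM was 0.56. The part of length was not tested. Of 9 genes that use isoprenoids, all were detected, from Fnta, the shared subunit of protein farnesylation (81.7 and 60.9 TPM), Rabggtb (44.1 and 47.0 TPM) and Dhdds, of dolichol synthesis (31.8 and 29.9 TPM), to Pdss2, of the ubiquinone tail (13.9 and 9.46 TPM).

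All 7 genes for lipoprotein receptors and sterol transfer were detected, with Lrp1 (42.4 and 33.0 TPM), Scarb1, a receptor for high-density lipoprotein (38.6 and 26.1 TPM), and Stard3, an endosomal sterol carrier (33.0 and 26.2 TPM), highest and Lrp8 lowest (3.16 and 2.63 TPM). Among 5 oxysterol and bile acid enzymes, 4 were detected. Cyp7b1, an oxysterol hydroxylase, had 16.5 and 15.9 TPM, Cyp27a1 6.36 and 4.74 TPM and Cyp46a1 2.08 and 1.89 TPM. Cyp7a1, the liver enzyme that begins bile acid synthesis, was at 0 counts in each library (3 counts would give 0.0732 and 0.0634 TPM).

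In the promoters, RefSeq listed 32 start sites for 24 of the 29 genes. Fdft1, Fdps, Npc1, Sqle and Stard4 were not matched. Each window ran from 250 bases before to 50 after a start site and was searched on both strands. The full sterol element, in which AT stands before the core CACNCCAC and its open position is C, was in 0 of the 32, as in 0.0913% of all 32851 promoters and 0.0392% of 12761 promoters of detected protein-coding genes. With TCACNCCAC it was in 1, that of Hmgcs1, where 1.24% of all promoters held it. The core alone, which the longer forms contain, was in 3 of the 32 (9.38%), those of Acat2, Hmgcs1 and Insig1, against 6.24% of all and 6.30% of detected protein-coding ones. The share in the list was near that in the other promoters, and a window without these letters says only that they are not in it.

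The NF-Y letters CCAAT were in 22 of the 32 windows (68.8%), against 37.4% of all and 37.9% of those of detected protein-coding genes, and in 21 of the 24 genes. The 47 matches had a median position 62 bases before the start site. Mvk held 5 of them, and Hmgcs1 and Nsdhl held 4 each. The Sp1 letters GGGCGG were in 26 (81.3%), against 35.7% of all and 62.7% of detected protein-coding ones, and the letters CACGTG of the E-box in 7 (21.9%), against 7.15% and 9.64%. By gene, the Sp1 letters were in 22 of the 24 and the E-box in 6. The shares of other promoters are per window, and none was computed per gene. A gene with several start sites has more windows, so counts by gene cannot be read against those shares. The windows of Scap overlap, so the same E-box and an Sp1 match there are counted in more than 1 window. Median GC content was 62.2% in the 32 windows, 60.7% in those of detected protein-coding genes and 52.7% in all. No test was made of these shares, and a match describes letters, not a bound site.

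**Figure D5:**
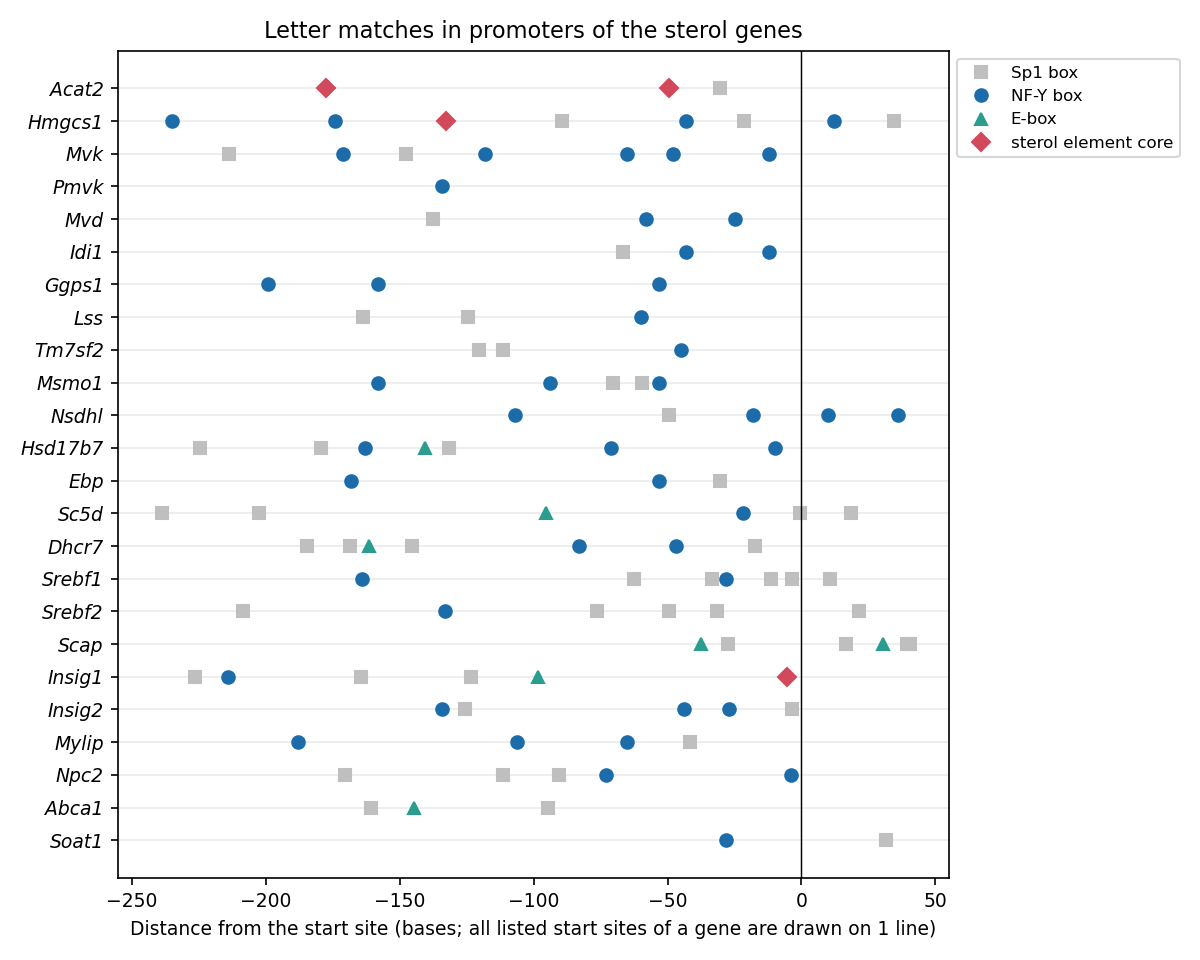
Positions of letter matches in the promoter windows of the 24 genes with a RefSeq start site, as distance in bases from the start site, with all start sites of a gene on 1 line. NF-Y letters (circles) occur in 21 genes, while the core of the sterol element (diamonds) occurs only in Acat2, Hmgcs1 and Insig1.

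For miR-33, the hairpin of 69 nt had 0 expected counts in both libraries, which says little, since RNA longer than 200 nt was selected. The letters CAATGCA occurred in the 3′ UTR of 2 of the 29 genes (6.90%), Abca1 with 3 matches and Nsdhl with 1, against 6.31% of 12274 detected protein-coding genes. In Abca1 they lay at bases 135 to 141, 140 to 146 and 150 to 156 of a 3′ UTR of 3156 nt, so that the match at 135 to 141 shares bases with the one at 140 to 146, and the match at 150 to 156 stands apart from both. Their host, Srebf2, was at 60.5 and 43.1 TPM where Abca1 was at 4.41 and 2.56 TPM, and with 1 condition no relation between them could be examined.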

How the data were processed

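Total RNA of 2 embryonic kidney libraries was quantified by the authors against mm10 with GENCODE release M4, per the readme files deposited with the samples; for aligner and quantifier, nothing is given in the sources used here. The deposited tables hold, per the file headers, expected counts (estimated reads per gene or transcript), TPM (per effective length, summed over all features including spike-ins), FPKM, a posterior mean TPM, lower and upper bounds of TPM (a signal whose interval level is not stated) and, for transcripts, the percent of the gene's level. Genes without a match in GENCODE M21 numbered 884, at 0.211% and 0.193% of counts.

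TPM as deposited by the authors was used for levels, with means and SD over 2 libraries, which measure only the spread between these samples. Ratios used log2(TPM + 1), which understates the change of low genes. Detection needed 1 TPM in both libraries. Symbols, coordinates and transcript kinds came from GENCODE M21 on GRCm38, promoters and the microRNA from RefSeq on GRCm38.p6. Expected counts were rounded for TMM factors (edgeR 4.0.16) and size factors (DESeq2 1.42.0), used for scaling only, in R 4.3.3; all else ran in Python 3.11.15 with pandas 2.3.3, numpy 2.4.6 and scipy 1.17.1. The rule for calling genes apart was written anew and tried on simulated data. Those had a smaller spread between libraries than here and no trend with length, so the trial does not measure errors in these data. The 2 libraries differed beyond counting error (chi-square per degree of freedom 69.8 over 18822 genes), so they were not counted as 1 library deposited more than once; counting error is only a part of the spread between library preparations. Member counts were 352 to 7732 in replicate 1 and 461 to 4750 in replicate 2.

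The members and lists were chosen with earlier results of these data known. All members are named; of each other list the 3 highest and the lowest by mean TPM, and of each marker list the 2 highest and the lowest, except a few genes that are not reported here. Alternatives were the other deposited units, pseudocounts, floors, scalings, protein-coding transcripts only, shorter sterol letters and leaving out each library.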

Additional observations from a re-analysis of the deposited data

How the results depend on the processing

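With 1 condition in 2 libraries, ratios between libraries have no value without either one, and those alternatives were not run. No paired analysis was possible because the labels give a single group. All 29 genes stayed detected under every setting tried, except 28 at a floor of 5 TPM. The median level of 33.0 TPM was 23.2 in FPKM, a unit on another scale. Genes apart between libraries, 2 as reported, were 1 with posterior mean TPM (4.41% of all genes), 0 in FPKM (2.43%), 0 with TMM scaling (2.09%), 0 with DESeq2 scaling (2.21%), 0 with a pseudocount of 5 (2.19%) and 11 at 1.5-fold (27.1%); at such low shares a 0 tells little about the list. The median log2 ratio of 0.40 was 0.17 in FPKM, 0.10 with TMM and 0.13 with DESeq2 scaling, where the median of all genes was 0.06, 0.00 and 0.03. Srebf2 over Srebf1 was 2.21 over protein-coding transcripts (1.18 over all), Sqle over Lss was 9.64 (5.54 over all), and promoters with a sterol element were 0 with the full letters, 1 with an open position and 3 with the core; the coding and core settings were chosen after seeing the data. Leaving out a library gave a median level of 25.5 to 37.5 TPM, Insig1 over Insig2 of 2.04 to 2.85, Srebf2 over Srebf1 of 1.01 to 1.36, Npc2 over Npc1 of 2.06 to 4.04, Sqle over Lss of 5.00 to 6.09 and a 1a-type share of 77.3% to 83.5%. Member counts were 352 or more; with 2 libraries, the spread between samples is poorly known.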
